A study of Mus musculus with 10 samples.

Results

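The mouse mitochondrial chromosome carries 37 annotated genes, taken here as every row of the count table whose symbol starts with mt-, out of 52227 genes. They comprise 2 rRNA genes, 13 protein-coding genes and 22 tRNA genes, and 28 of them are annotated on the + strand and 9 on the - strand. RNA-seq libraries were made from the cortical hem (CH) of e13.5 mouse embryos, the signaling center at the medial edge of the cortical neuroepithelium, and the question addressed was how loss of the LIM-homeodomain transcription factor Lmx1a alters CH gene expression. Wild-type embryos (n = 5) were compared with Lmx1a-/- embryos (n = 5) homozygous for the drJ allele, a point mutation after which an inactive protein is still made, on a mixed C57Bl6, FVB and CD1 background with males and females used. The CH was cut by laser capture from sections of 1 embryo per library, with neighboring sections stained for Lmx1a as a guide, so that each library is a separate embryo and CH tissue was not separated into cell types.

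Mitochondrial DNA is transcribed from both strands into long precursors that run through many genes. The tRNAs lie between the rRNAs and mRNAs, and their excision releases the mature RNAs. The rRNAs form the mitochondrial ribosome, and the mRNAs encode subunits of respiratory complexes I, III and IV and of ATP synthase (complex V), whose other subunits come from the nucleus.

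The following sequences show how tightly these genes are packed and how closely some of them are copied in the nucleus (GENCODE M21 transcripts, GRCm38, written 5′ to 3′ on the strand of the gene). The end of mt-Rnr2 runs into mt-Tl1, a tRNA gene for leucine, with 0 bases between them, and mt-Nd1 follows after another 0 bases. The last 24 bases of mt-Rnr2 are in lower case and mt-Tl1 is in capitals (chrM:2652-2750, + strand).
mt-Rnr2 and mt-Tl1: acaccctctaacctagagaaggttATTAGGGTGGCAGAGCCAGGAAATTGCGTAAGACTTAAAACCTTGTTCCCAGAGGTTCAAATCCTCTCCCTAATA
The gene mt-Atp8 shares its last 43 bases, in capitals, with the start of mt-Atp6 (chrM:7766-7969, + strand).
mt-Atp8: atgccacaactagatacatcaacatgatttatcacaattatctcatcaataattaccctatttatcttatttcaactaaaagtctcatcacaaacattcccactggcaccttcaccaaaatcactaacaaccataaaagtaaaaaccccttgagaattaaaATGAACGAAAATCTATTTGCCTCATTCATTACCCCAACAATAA
The start of mt-Nd3 (chrM:9459-9518, + strand) is shown against the pseudogene Gm28438 (chr1:24613060-24613119, - strand), with the base that differs in capitals.
mt-Nd3: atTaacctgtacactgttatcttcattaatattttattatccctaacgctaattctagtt
Gm28438: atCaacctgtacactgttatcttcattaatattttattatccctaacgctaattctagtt
The only difference over their 345 aligned bases is T3C, counted from the start of mt-Nd3. A stretch of mt-Cytb (chrM:14206-14265, + strand) beside its longest nuclear match, Gm11410 (chr4:80004050-80004109, + strand), shows a more diverged copy.
mt-Cytb: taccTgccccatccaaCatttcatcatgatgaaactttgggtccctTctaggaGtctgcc
Gm11410: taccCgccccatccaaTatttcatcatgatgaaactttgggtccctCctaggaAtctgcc
Within these 60 bases the pair differ 4 times (T66C, C78T, T108C and G115A, counted from the start of mt-Cytb), and over 1142 aligned bases they are 92.9% identical.

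Library totals ranged from 19145952 to 36462780 counts. Lmx1a itself averaged 71.2 ± 18.2 CPM (counts per 1000000, normalized by TMM) in wild-type and 114 ± 21.0 in Lmx1a-/- libraries (SD, n = 5 each), with a log2 fold change of 0.68 (edgeR, FDR 0.0658), so the count of a transcript that is still made does not check the genotype labels. That call was lost without wild-type embryo 1 or 4 or Lmx1a-/- embryo 4 or 5 (FDR 0.102, 0.126, 0.157 and 0.107, with fold changes of 0.55 to 0.78 over single libraries left out), without Lmx1a-/- embryos 4 and 5 together (0.57, FDR 0.278), with embryo number as a replicate block (FDR 0.136) and with the choroid plexus or Xist level as a covariate (FDR 0.102 and 0.644). The 9 CH markers listed were all detected, and their summed level was 1609 to 2941 CPM in wild-type and 1974 to 2580 CPM in Lmx1a-/- libraries. Of the 9, which include Lmx1a itself, 5 were lower and 1, Lmx1a, higher at an FDR of 0.1. Among all genes tested 2.29% were lower and 1.72% higher. An unadjusted p under 0.05 in edgeR was found for 7, against 16.4% of all genes tested, and the median log2 fold change was -0.45. Xist, transcribed from the inactive X chromosome of females, was at 4399 CPM or more in wild-type embryos 2 to 5 and at 1.15 CPM or less in the other 6 libraries, so sex and genotype can hardly be told apart. Red blood cell markers summed to 643 to 1489 CPM in wild-type and 268 to 581 CPM in Lmx1a-/- libraries, without overlap. Of all genes tested singly, 4.44% did not overlap. None of 9 red blood cell markers tested was called, 8 had a lower mean in Lmx1a-/- libraries, and the median was -0.91. An unadjusted p under 0.05 in edgeR was found for 6 of them, against 16.4% of all genes tested. Choroid plexus markers summed to 128 to 478 and 148 to 228 CPM, with 2 of 10 called lower, 9 with a lower mean and a median of -1.23. For 8 of the 10 the unadjusted p in edgeR was under 0.05 (80%, against 16.4% of all genes). Markers of mesenchyme and meninges summed to 316 to 906 and 244 to 507 CPM, with 2 of 8 called lower, 7 with a lower mean and a median of -0.60. For 4 of the 8 the unadjusted p in edgeR was under 0.05 (50%, against 16.4% of all genes). The part of these markers in the values below was not tested, beyond fits with the choroid plexus level as a covariate among the alternatives.

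Embryos 4 and 5 of the Lmx1a-/- group stood apart from the other 8 libraries in the proportions of their mitochondrial mRNAs. The ratio of mt-Nd1 to mt-Co1 counts in the same library was 0.257, 0.248, 0.264, 0.272 and 0.267 in wild-type embryos 1 to 5. It was 0.261, 0.271 and 0.279 in Lmx1a-/- embryos 1 to 3, but 0.422 in embryo 4 and 0.488 in embryo 5. Values without these 2 embryos are given beside the results of the rRNAs, the well-counted mRNAs, mt-Tl1 and mt-Tp.

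Mitochondrial RNA was a large part of every library, and its share did not separate the genotypes. Together the 37 genes held 25.6 ± 1.31% of counts in wild-type and 25.0 ± 2.81% in Lmx1a-/- libraries (SD, n = 5 each). The shares were 26.3, 26.1, 24.5, 27.1 and 23.9% in wild-type embryos 1 to 5 and 20.6, 27.1, 24.4, 25.3 and 27.6% in Lmx1a-/- embryos 1 to 5. The groups overlapped, and Lmx1a-/- embryo 1 was the lowest of the 10. A Wilson 95% interval on any of these shares was at most 0.0398 percentage points wide, covers counting error only, and was far narrower than the spread between embryos. In bulk tissue a share cannot tell apart fewer cells of a type and less RNA per cell.

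The 2 rRNA genes held most of these counts, on average 90.8% of the mitochondrial counts of a library, the mRNA genes 9.21% and the tRNA genes 0.00575%. The mRNA counts came almost wholly from 7 of the 13 mRNA genes, since the other 6 held 226 counts in all. Parts of mt-Nd4 and mt-Co1 also have near-identical nuclear copies, so the mRNA share is a share of counts only. The rRNA share of all counts was 23.3 ± 1.19% in wild-type and 22.7 ± 2.76% in Lmx1a-/- libraries. The mRNA share was 2.33 ± 0.139% and 2.31 ± 0.0855%, and the tRNA share was 0.00132 ± 0.000185% and 0.00157 ± 0.000273%. In each class the genotypes overlapped. Without Lmx1a-/- embryos 4 and 5 the mutant means were 21.8% for rRNA, 2.25% for mRNA and 0.00144% for tRNA, and each still overlapped the wild-type range.

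**Figure D1:**
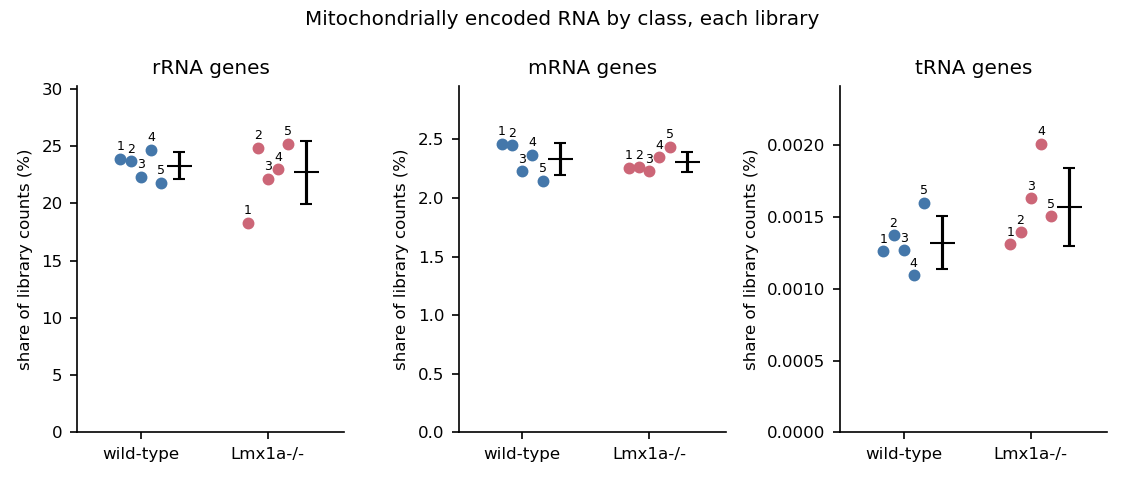
Share of library counts (%) taken by mitochondrial rRNA, mRNA and tRNA genes in each library, numbered by embryo, with the mean and SD of each genotype in black (n = 5 each). The genotypes overlap in all 3 classes, and Lmx1a-/- embryo 1 has the lowest rRNA share, 18.3%. Of the 13 mRNA genes, 6 were almost absent from the counts.

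Of the 37 genes, 15 had at least 10 counts in at least 3 libraries and were tested with edgeR's quasi-likelihood test among 21664 genes. None of the 15 passed an FDR of 0.1 in either direction, against 4.02% of all genes tested (2.29% lower and 1.72% higher). At an unadjusted p under 0.05 there were 2, mt-Tl1 and mt-Co1, against 16.4% of all genes, and DESeq2 called 1 gene, mt-Tl1, higher, against 3.65% of all genes. All 15 overlapped between the genotypes, whereas 4.44% of all genes tested did not. The log2 fold change was positive in 11 and negative in 4, with a median of 0.083, compared with -0.0049 for all genes tested. Without Lmx1a-/- embryos 4 and 5 it was positive in 4 of the 13 members that could still be tested.

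**Figure D2:**
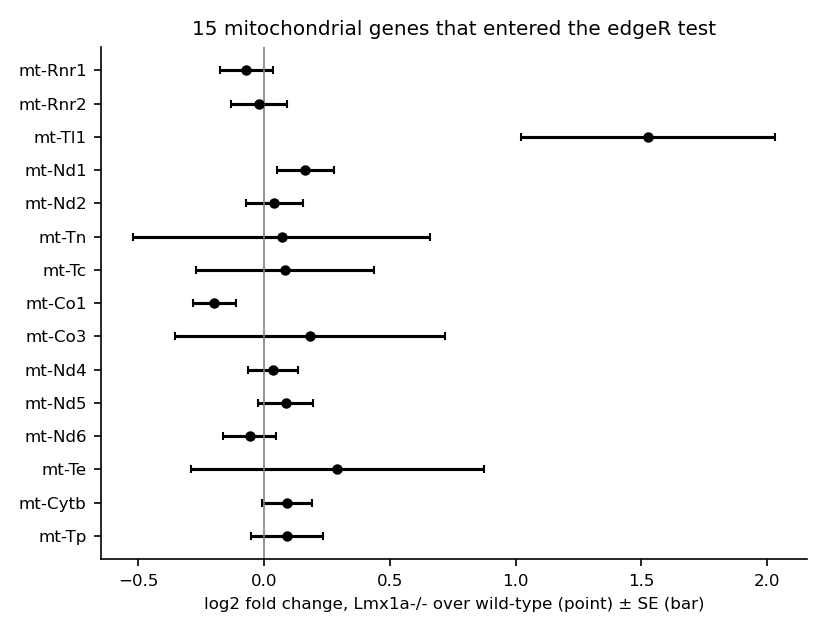
Log2 fold change (Lmx1a-/- over wild-type) of the 15 mitochondrial genes that entered the edgeR test, in chromosome order from the top. Points are estimates and bars are SE, with the largest estimate at mt-Tl1 (1.53) and mt-Co1 at -0.20.

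The rRNA genes were the most abundant members and differed little between genotypes. Their products are the small (12S, mt-Rnr1) and large (16S, mt-Rnr2) rRNA of the mitochondrial ribosome. For mt-Rnr1 (ENSMUSG00000064337, chrM:70-1024), normalized CPM were 94568, 91005, 82994, 96127 and 82727 in wild-type and 69662, 107113, 80460, 76175 and 92859 in Lmx1a-/- embryos 1 to 5. The mutant libraries lay on both sides of the wild-type range, and the log2 fold change was -0.070 (SE 0.10, FDR 0.798), and -0.055 (FDR 0.919) without Lmx1a-/- embryos 4 and 5. For mt-Rnr2 (ENSMUSG00000064339, chrM:1094-2675) the values were 150502, 150340, 134349, 152474 and 134029 in wild-type and 101738, 151487, 133035, 155942 and 169685 in Lmx1a-/- libraries. The fold change was -0.020 (SE 0.11, FDR 0.953), with embryo 1 the lowest library and embryos 4 and 5 the highest. Without embryos 4 and 5 it was -0.16 (FDR 0.677).

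The ratio of the 2 rRNAs varied less among wild-type than among Lmx1a-/- libraries. In wild-type libraries mt-Rnr1 had 0.628, 0.605, 0.618, 0.630 and 0.617 counts per mt-Rnr2 count. In Lmx1a-/- libraries the values were 0.685, 0.707, 0.605, 0.488 and 0.547, with embryos 1 and 2 above all wild-type libraries and embryos 4 and 5 below them. Lmx1a-/- embryo 3 was at the edge of the wild-type range (0.6048, beside 0.6053 in wild-type embryo 2). The means were 0.620 ± 0.0101 and 0.606 ± 0.0918 (SD, n = 5 each), a log2 difference of -0.045 (exact permutation test, two-sided, p = 0.627, 0.921 after Benjamini-Hochberg adjustment over 3 ratios). The smallest p that 5 against 5 libraries can give is 0.00794. Without Lmx1a-/- embryos 4 and 5 the mutant mean was 0.666 ± 0.0538 (n = 3), now above that of wild-type, with a log2 difference of 0.10 (exact permutation test, two-sided, p = 0.214, adjusted 0.643). With all 5 embryos the SD of the Lmx1a-/- group was 9.10 times that of wild-type, and without those 2 it was 5.33 times, a difference in spread that was noticed in the data and not tested.

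Among the mRNAs, 7 were counted in large numbers in every library and 6 were almost absent from the table. Normalized counts of the 7 are given by the complex their proteins belong to. Subunits of complex I, which takes electrons from NADH, are encoded by mt-Nd1, mt-Nd2, mt-Nd4, mt-Nd5 and mt-Nd6.

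For mt-Nd1 (ENSMUSG00000064341, chrM:2751-3707) CPM were 2726, 2658, 2375, 2671 and 2376 in wild-type and 2329, 2686, 2428, 3255 and 3651 in Lmx1a-/- libraries. Embryos 4 and 5 of the Lmx1a-/- group were the highest of the 10, and the log2 fold change was 0.16 (SE 0.11, FDR 0.518), which became -0.039 without them. For mt-Nd2 (ENSMUSG00000064345, chrM:3914-4951) the wild-type libraries held 841 to 990 CPM and the mutant ones 856 or less in embryos 1 to 3, 1047 in embryo 4 and 1180 in embryo 5. Its fold change was 0.041 (SE 0.11, FDR 0.900), and -0.16 without those 2 embryos. For mt-Nd4 (ENSMUSG00000064363, chrM:10167-11544) the range was 1553 to 1940 CPM in wild-type and 1440 to 2153 in Lmx1a-/- libraries, with a fold change of 0.037 (SE 0.10, FDR 0.899) that turned to -0.090 without them. The gene mt-Nd5 (ENSMUSG00000064367, chrM:11742-13565) ranged from 3360 to 4318 CPM in wild-type and from 3638 to 5297 in Lmx1a-/- libraries. Its fold change was 0.087 (SE 0.11, FDR 0.749), and -0.085 without embryos 4 and 5.

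The mRNA of mt-Nd6 (ENSMUSG00000064368, chrM:13552-14070) is the only mRNA of the 13 annotated on the - strand. It held 660, 693, 617, 695 and 468 CPM in wild-type and 653, 587, 525, 587 and 660 in Lmx1a-/- libraries. The ranges overlapped, and the log2 fold change was -0.057 (SE 0.11, FDR 0.844), and -0.084 (FDR 0.872) without Lmx1a-/- embryos 4 and 5. Against mt-Nd5, whose last 14 bases it overlaps on the opposite strand, mt-Nd6 had 0.157 ± 0.0104 counts per count in wild-type and 0.145 ± 0.0207 in Lmx1a-/- libraries (log2 difference -0.12, exact permutation test, two-sided, p = 0.230, adjusted 0.690). Without those embryos the mutant mean was 0.158 ± 0.0158 (n = 3) and the log2 difference 0.0038. The strand setting of the counting is not given in the sources used here.

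Complex III passes electrons to cytochrome c, and mt-Cytb (ENSMUSG00000064370, chrM:14145-15288) encodes its cytochrome b. Its CPM were 4138, 3930, 3586, 3777 and 3743 in wild-type and 3292, 3906, 3713, 4569 and 4974 in Lmx1a-/- libraries, with a fold change of 0.093 (SE 0.10, FDR 0.696). As with mt-Nd1, embryos 4 and 5 were the highest, and without them the fold change was -0.069.

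Complex IV reduces oxygen, and mt-Co1 (ENSMUSG00000064351, chrM:5328-6872), which encodes its catalytic subunit, went the other way. Wild-type libraries held 10622, 10702, 8997, 9804 and 8890 CPM and Lmx1a-/- libraries 8929, 9913, 8713, 7722 and 7485 CPM. Embryos 4 and 5 were the lowest of the 10, and the other mutant embryos lay within or just under the wild-type range. The log2 fold change was -0.20 (SE 0.087, unadjusted p = 0.0405 in edgeR's quasi-likelihood test, FDR 0.276). Without embryos 4 and 5 it was -0.087 (FDR 0.772).

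Taken relative to mt-Co1 within each library, embryos 4 and 5 departed from the others at most well-counted members, with mt-Co1 itself at its lowest in both. For 7 of the 8 other genes with large counts, both libraries lay above all of the other 8, by 1.19 to 1.84 times the mean of those libraries. The exception was mt-Rnr1, where embryo 4 lay within the others. For mt-Rnr2 the ratio was 14.0 to 15.6 in wild-type libraries, 11.4, 15.3 and 15.3 in Lmx1a-/- embryos 1 to 3, and 20.2 and 22.7 in embryos 4 and 5. For mt-Cytb it was 0.367 to 0.421 in wild-type libraries, 0.592 in embryo 4 and 0.665 in embryo 5. For mt-Nd6 the step was smaller, from at most 0.0732 in the other 8 libraries to 0.0760 and 0.0881. In CPM, without mt-Co1 as the denominator, 5 of the 9 genes were above the other 8 libraries in both embryos (mt-Rnr2, mt-Nd1, mt-Nd2, mt-Nd5 and mt-Cytb) and 1 was below (mt-Co1). The CPM of mt-Rnr1 and mt-Nd6 lay within the range of the others, as did that of mt-Nd4 in embryo 4. These ratios were chosen after the values were seen and have no test.

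**Figure D3:**
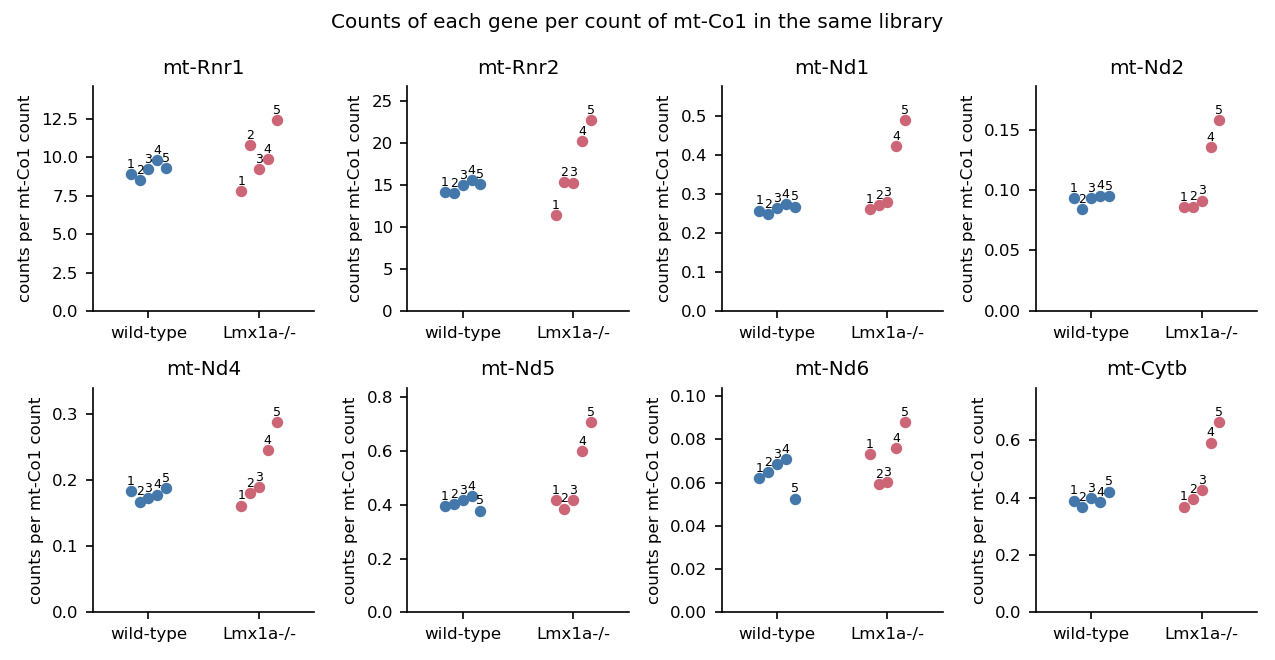
Counts of 8 mitochondrial genes per mt-Co1 count in the same library (linear axes from 0), each point 1 embryo with its number. Lmx1a-/- embryos 4 and 5 lie above the other 8 libraries in every panel except mt-Rnr1.

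The spread between embryos was also wider in the Lmx1a-/- group, for most genes only with embryos 4 and 5 included. The coefficient of variation of CPM scaled by library totals was larger in Lmx1a-/- than in wild-type libraries for 8 of the 9 well-counted rRNA and mRNA genes. For mt-Nd1 it was 4.96% in wild-type and 16.4% in Lmx1a-/- libraries, and for mt-Rnr2 4.88% and 14.7%. The exception was mt-Nd6, with 14.3% and 10.2%. Among Lmx1a-/- embryos 1 to 3 alone it was larger than in wild-type for 3 of the 9, mt-Rnr1 (16.8% against 5.63%), mt-Rnr2 (14.9%) and mt-Cytb (4.67% against 3.57%), while mt-Nd1 stood at 1.90%. No difference in spread was tested.

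Levels of different genes can be set beside each other only per length, here as CPM scaled by library totals and divided by gene length in kilobases, over all 10 libraries. The rRNAs stood at 91159 ± 9136 for mt-Rnr1 and 90245 ± 9266 for mt-Rnr2 (SD, n = 10) and were not separated. The mRNA with the highest level per length was mt-Co1 (5934 ± 685), whose libraries did not overlap those of mt-Cytb (3453 ± 346). After mt-Cytb came mt-Nd1 (2827 ± 380), mt-Nd5 (2239 ± 265), mt-Nd4 (1274 ± 111), mt-Nd6 (1183 ± 141) and mt-Nd2 (879 ± 101). Of these neighbors, the ranges of mt-Nd5 and mt-Nd4 over the 10 libraries did not overlap, whereas those of each other neighboring pair did. Overlapping ranges do not show that the order changed within a library. The order holds for whole gene lengths only. Parts of mt-Nd4 and mt-Co1 have near-identical nuclear copies, described below. With all counts divided by its bases outside such a copy, mt-Nd4 stood at 3497, above mt-Nd5.

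The remaining 6 mRNAs held 226 counts in all 10 libraries together, while the 7 above held between 166105 and 2458085 each. The gene for the second core subunit of complex IV, mt-Co2 (ENSMUSG00000064354, chrM:7013-7696), had 9, 6, 4, 3 and 4 counts in wild-type and 1, 5, 6, 2 and 3 in Lmx1a-/- libraries. The complex V genes mt-Atp6 (ENSMUSG00000064357, chrM:7927-8607) and mt-Atp8 (ENSMUSG00000064356) had 50 counts and 1 count in all. The complex I genes mt-Nd3 (ENSMUSG00000064360, chrM:9459-9806) and mt-Nd4l (ENSMUSG00000065947, chrM:9877-10173) had 9 and 24. For comparison, mt-Nd4l overlaps mt-Nd4 by 7 bases, and mt-Nd4 had 477965 counts.

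The sixth of these, mt-Co3 (ENSMUSG00000064358, chrM:8607-9390), encodes a further complex IV subunit and had 99 counts in all. It was the only one to enter the edgeR test, with 0.37, 0.14, 0.35, 0.42 and 0.37 CPM in wild-type and 0.57, 0.16, 0.27, 0.47 and 0.38 CPM in Lmx1a-/- libraries. The groups overlapped, and the log2 fold change was 0.18 (SE 0.54, FDR 0.907). Its ratio to mt-Cytb was 8.6e-05 in wild-type and 9.3e-05 in Lmx1a-/- libraries (log2 difference 0.066, exact permutation test, two-sided, p = 0.921, adjusted 0.921).

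The low counts of these 6 mRNAs fell on a single stretch of the mitochondrial chromosome. Annotated nuclear transcripts at least 98% identical over at least 30 bases were searched for each of the 37 genes. A block of pseudogenes on chromosome 1 (chr1:24611535-24616197, - strand) matched parts of the mitochondrial stretch from the last part of mt-Co1 to the first part of mt-Nd4 (chrM:6390-11042, 4653 bases). The matches leave gaps, and the nuclear sequence between annotated transcripts was not searched. The 11 genes that lie wholly inside this stretch, 6 mRNA and 5 tRNA genes, held no more than 99 counts each over the 10 libraries. For tRNA genes such counts were not particular to the stretch. Many outside it were also low, such as mt-Tw with 0 counts and mt-Te with 67.

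Within the block, mt-Co2 was 100% identical to Gm28661 over 681 bases, mt-Atp6 to Gm10925 over 678, mt-Co3 to Gm28437 over 783 and mt-Nd4l to Gm10222 over 294. The match of mt-Nd3 to Gm28438 was the 345 bases shown above. Of mt-Atp8, only the 43 bases shared with mt-Atp6 had an annotated nuclear copy (21.1% of its length), although it lies between mt-Co2 and mt-Atp6. Of the well-counted mRNAs, mt-Nd4 had 63.6% of its length in the block and mt-Co1 had 31.3%, and mt-Nd1, mt-Nd2, mt-Nd5, mt-Nd6, mt-Cytb and both rRNAs had none.

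The nuclear copies were also counted sparingly. Gm28661 had 132 to 356 counts per library, Gm10925 had 47 to 82, Gm28437 had 170 to 308, Gm28438 had 352 to 583 and Gm10222 had 57 to 197, so neither member of a pair came near the levels of mt-Co1 or mt-Cytb. With all counts divided by the bases outside the block, the level of mt-Nd4 was 3497 and that of mt-Co1 8633 CPM per kilobase, compared with 1274 and 5934 over their whole lengths. The counting program was HTSeq, which by default leaves out reads that align equally well in several places. The setting used is not given in the sources used here, and its part in the low counts was not tested.

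**Figure D4:**
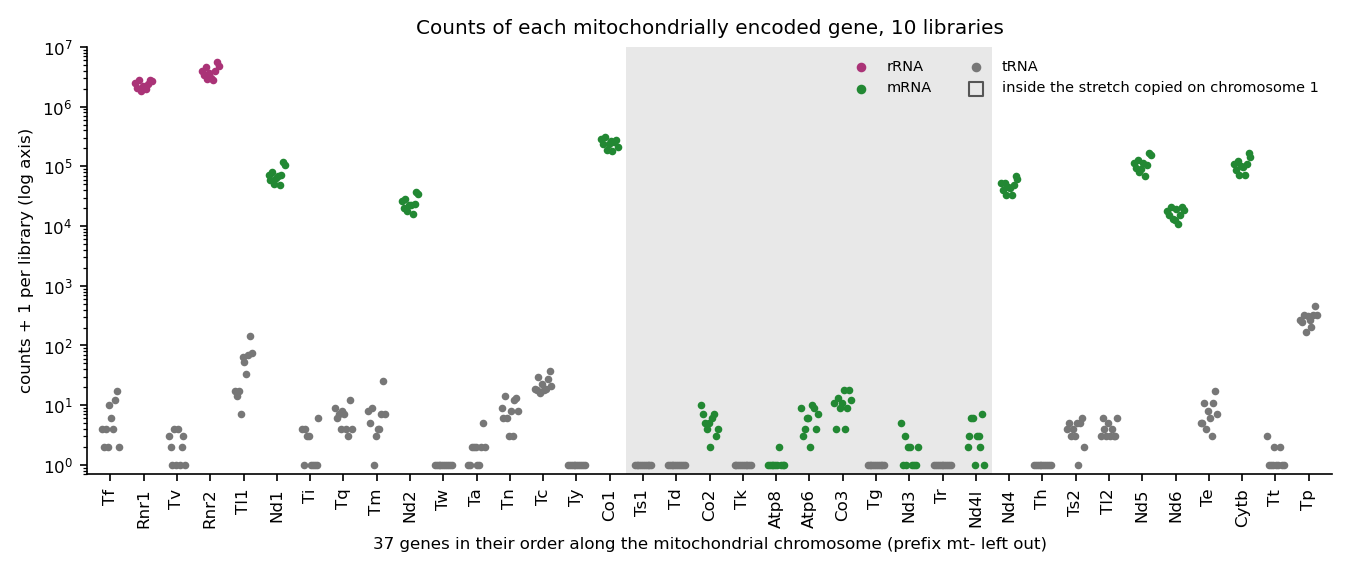
Counts + 1 (log axis) of each of the 37 mitochondrial genes in each of the 10 libraries, in gene order along the chromosome, colored by class. Shading marks genes wholly inside the stretch spanned by the matches to the chromosome 1 pseudogenes, not all of which have an annotated copy. The 11 shaded genes (6 mRNA and 5 tRNA genes) have at most 99 counts over all libraries, while the mRNAs on either side have 166105 or more. Many tRNA genes outside the shading are also low.

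The tRNA genes, 59 to 75 bases long, were counted in small numbers, 3999 counts over all libraries, of which 72.3% fell on mt-Tp, the tRNA gene for proline. No count was recorded in any library for 8 of the 22, mt-Tw, mt-Ty, mt-Ts1, mt-Td, mt-Tk, mt-Tg, mt-Tr and mt-Th. A count of 0 allows a level of up to 0.0823 to 0.157 CPM, depending on the library, at 3 counts of its total. All 5 tRNA genes inside the stretch spanned by the chromosome 1 matches were among these 8, against 3 of the 17 outside it, although no tRNA gene had a near-identical annotated nuclear copy of its own. Intergenic nuclear sequence was not searched.

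For mt-Tp (ENSMUSG00000064372, chrM:15356-15422, - strand), which is the last gene of the chromosome, CPM were 10.1, 11.3, 9.59, 8.72 and 11.4 in wild-type and 8.84, 10.9, 10.8, 12.7 and 11.2 in Lmx1a-/- libraries. The groups overlapped, with a log2 fold change of 0.092 (SE 0.14, FDR 0.812), and 0.0012 (FDR 0.999) without Lmx1a-/- embryos 4 and 5. For mt-Tc (cysteine, ENSMUSG00000064349, chrM:5192-5257) the range was 0.67 to 0.85 CPM in wild-type and 0.57 to 1.00 in Lmx1a-/- libraries, for mt-Tn (asparagine, ENSMUSG00000064348, chrM:5089-5159) 0.074 to 0.38 and 0.11 to 0.37, and for mt-Te (glutamate, ENSMUSG00000064369, chrM:14071-14139) 0.15 to 0.29 and 0.11 to 0.44. Their FDR lay between 0.856 and 0.970. The other tRNA genes with any count (mt-Tf, mt-Tv, mt-Ti, mt-Tq, mt-Tm, mt-Ta, mt-Ts2, mt-Tl2 and mt-Tt) had 4 to 63 counts over all libraries and were not tested.

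The tRNA gene mt-Tl1 (ENSMUSG00000064340, chrM:2676-2750), shown above at the end of mt-Rnr2, had the largest fold change of the 15 members tested. Its counts were 16, 13, 16, 6 and 62 in wild-type and 51, 32, 68, 145 and 74 in Lmx1a-/- libraries. In CPM these were 0.60, 0.59, 0.47, 0.31 and 2.29 against 1.70, 1.74, 2.32, 4.02 and 2.57. All Lmx1a-/- libraries lay above wild-type embryos 1 to 4, but wild-type embryo 5 lay among them. The log2 fold change was 1.53 (SE 0.50, edgeR FDR 0.145), short of the threshold. DESeq2 gave an adjusted p of 0.0472, and edgeR without wild-type embryo 5 gave a fold change of 2.31 (FDR 0.0129), whereas without Lmx1a-/- embryos 4 and 5 it was 1.17 (FDR 0.489). The neighbors on either side, mt-Rnr2 and mt-Nd1, had 49426 counts or more in every library, and counting at these borders was not tested.

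Nuclear genes that build and run mitochondria were examined in lists. Of 83 tested nuclear subunits of complexes I to V, 2 (2.41%) were lower and 0 higher in Lmx1a-/- libraries at an FDR of 0.1, against 2.29% lower among all genes tested, so their share was near the background. At an unadjusted p under 0.05 there were 19 (22.9%, against 16.4% of all genes) in edgeR, and DESeq2 called 6 lower, against 4.51% of all genes. The median log2 fold change was -0.039, beside -0.0049 for all genes. The 2 were complex IV subunits, Cox5b and Cox8a, among 15 complex IV genes tested with a median of -0.22. Of the 15, 13.3% were called lower, against 2.29% of all genes, and 13 had a lower mean, against 50.6% of all genes. In edgeR 5 of them (33.3%, against 16.4%) had an unadjusted p under 0.05. Cox6a2 and Cox8b had too few counts to test. For Cox5b, CPM were 24.1, 23.0, 25.1, 27.6 and 21.8 in wild-type and 19.3, 16.9, 17.9, 20.9 and 17.3 in Lmx1a-/- libraries (log2 fold change -0.40, SE 0.11, FDR 0.0752). For Cox8a they were 59.02, 43.8, 49.6, 51.0 and 45.9 against 39.5, 36.3, 39.5, 27.0 and 40.3 (-0.45, SE 0.12, FDR 0.0770). Neither gene overlapped between genotypes, as was so for 4.44% of all genes tested. The 2 were picked by their call in these same libraries, so this adds no separate evidence. Both lost the call with library totals alone as the scale, with embryo number as a replicate block and without Lmx1a-/- embryos 4 and 5 (FDR 0.191 and 0.215). With single libraries left out, Cox5b lost the call without wild-type embryo 1, 2, 3 or 4 or Lmx1a-/- embryo 2, 3 or 5, and Cox8a without wild-type embryo 1, 3 or 4 or Lmx1a-/- embryo 2, 4 or 5 (fold changes of -0.45 to -0.35 and -0.50 to -0.36).

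No gene was called by edgeR in the lists for complexes I (37 tested), II (4), III (9) and V (18). In these lists 6, 3, 2 and 3 genes (16.2, 75.0, 22.2 and 16.7%) had an unadjusted p under 0.05 in edgeR, against 16.4% of all genes. DESeq2 called 2, 1, 1 and 0, all lower, against 4.51% lower among all genes. The gene with the smallest p was Ndufa13 (-0.39, FDR 0.114), Sdhc (-0.30, FDR 0.126), Uqcrq (-0.56, FDR 0.109) and Atp5j (-0.20, FDR 0.193), respectively. Among genes for mitochondrial transcription and replication (20 tested) none was called, and the smallest p was that of Ssbp1 (0.33, FDR 0.111), which binds single-stranded mitochondrial DNA. The same held for RNA processing and stability (39 tested, Trmt10c 0.28, FDR 0.170), mitochondrial ribosomal proteins (78 tested, Mrpl9 0.45, FDR 0.140), translation factors (10 tested, Mtif2 0.28, FDR 0.224) and regulators of mitochondrial biogenesis (12 tested, Ppargc1b -1.30, FDR 0.130). In these 5 lists 2, 3, 7, 1 and 1 genes had an unadjusted p under 0.05, and DESeq2 called 1, 1, 2, 0 and 1.

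Among 21 mitochondrial tRNA synthetases, 1 was lower (4.76%, against 2.29% of all genes) and none higher in edgeR. An unadjusted p under 0.05 in edgeR was found for 5 (23.8%, against 16.4% of all genes). DESeq2 called 1 lower and 2 higher, against 4.51% and 3.65% of all genes. The edgeR call was Lars2, which charges the mitochondrial leucine tRNAs. It held most of the summed level of the 21 genes in every library, a sum of 2284 to 3744 CPM in wild-type and 1010 to 2471 CPM in Lmx1a-/- libraries. How much of the count at Lars2 came from its mRNA was not tested. Lars2 itself was at 3395, 2446, 2959, 2995 and 1909 CPM in wild-type and 1444, 1533, 2087, 792 and 590 CPM in Lmx1a-/- libraries. Only Lmx1a-/- embryo 3 reached the wild-type range, and embryos 4 and 5 were the lowest. The log2 fold change was -1.09 (SE 0.28, FDR 0.0674), and -0.69 without those embryos (FDR 0.144). The call was also lost without wild-type embryo 1, 2 or 4 or Lmx1a-/- embryo 2 or 4 alone (fold changes of -1.33 to -0.90 with single libraries left out). Over all the nuclear lists, including a mitochondrial stress response list without a call (15 tested, 0 at an unadjusted p under 0.05, smallest p at Chac1), 3 of 278 genes tested (1.08%) were lower and 0 higher, below the 2.29% and 1.72% of all genes, with 38 (13.7%, against 16.4%) at an unadjusted p under 0.05 and a median of -0.0038. The glycolysis list (17 tested) had no call by edgeR or DESeq2 either, with 1 unadjusted p under 0.05 (5.88%, against 16.4% of all genes), that of Eno2.

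**Figure D5:**
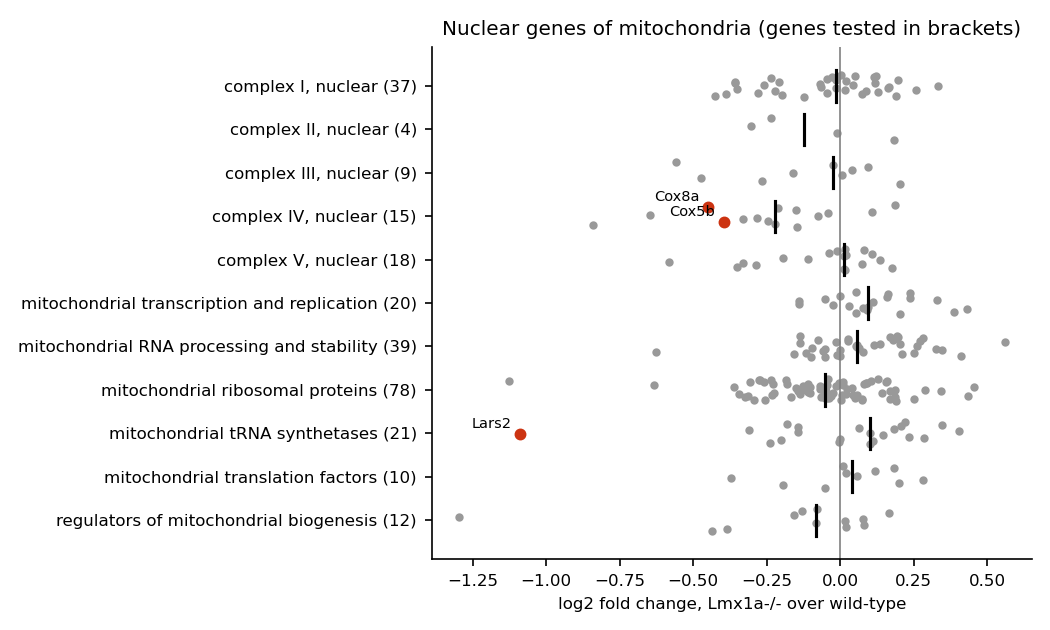
Log2 fold change (Lmx1a-/- over wild-type) of each tested nuclear gene in 11 lists of mitochondrial function, with the number tested in brackets. Black bars are list medians, and the 3 genes past an FDR of 0.1, Cox5b, Cox8a and Lars2, are in red with their names.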

How the data were processed

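RNA-seq libraries of laser-captured CH from 5 wild-type and 5 Lmx1a-/- embryos were compared. Per the submitters' processing notes, the authors used FastQC 0.11.8, Trimmomatic, STAR 2.7.1a and HTSeq 0.11.2 with GRCm38, and the values they deposited are raw read counts per gene, without normalization. Library preparation used a SMARTER mRNA-Seq kit, so RNAs without a long poly(A) tail are measured only as far as that kit captures them. The deposited table had 52508 rows, of which 281 repeated another row exactly and were dropped, none of them mitochondrial.

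Groups and embryo numbers came from the sample labels. A gene entered the test when 3 or more libraries held 10 or more counts. Tests were run in edgeR 4.0.16 (R 4.3.3) with TMM scaling and the quasi-likelihood test, all 10 libraries, no covariate, and FDR (Benjamini-Hochberg over all genes tested) under 0.1, the threshold stated in the study's methods. Normalized CPM are TMM-scaled, and the SE was derived from the log2 fold change and its F statistic. On simulated counts for 21032 genes, 60.8% of 194 genes changed by 1.5 on the log2 scale were recovered, and 7.81% of 128 calls were false. Class shares are counts divided by library totals and were not tested. The 3 ratios planned were tested by exact permutation (SciPy 1.17.1). Positions come from GENCODE M21, and nuclear copies were found with BLAST+ 2.17.0 among its transcripts. Alternatives were RLE factors, library totals alone, totals without mitochondrial genes, 2 other filters, DESeq2 1.42.0, embryo number as a block, choroid plexus or Xist level as a covariate, each library left out, and, added after seeing the data, Lmx1a-/- embryos 4 and 5 left out together.

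All 37 genes were to be accounted for, with the rRNAs and mRNAs by value, the 5 tRNAs with the highest mean count by value, and the other tRNAs by range. Nuclear genes were named as up to 5 called per list, or otherwise the gene with the smallest p. The genes and lists were chosen with earlier results of these data known.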

Additional observations from a re-analysis of the deposited data

Results flagged for a closer look

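In 52 groups of 5 libraries, covering 26 results, a single library lay far from the rest in 4 (Dixon's test at the 95% level, which chance alone meets in about 1 group of 20). In wild-type embryo 5, mt-Tl1 stood at 2.29 CPM, while the other 4 wild-type libraries held 0.31 to 0.60 CPM. The same embryo had the lowest wild-type ratio of mt-Nd6 to mt-Nd5, 0.139, with the others at 0.158 to 0.164. In wild-type embryo 2, mt-Co3 stood at 0.135 CPM, from 3 counts, with the others at 0.353 to 0.415 CPM, and the ratio of mt-Co3 to mt-Cytb was therefore also low, at 3.44e-05, with the others at 9.02e-05 to 0.00011.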

How the results depend on the processing

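Leaving out each library in turn, 0 to 1 mitochondrial genes were called higher and 0 lower, the 1 being mt-Tl1 without wild-type embryo 5, and DESeq2 also called 1 higher. Differences in class shares moved by less than 1 SD under every alternative, but with single libraries left out they turned direction, from -1.25 to 0.51 percentage points for all mitochondrial genes and -1.20 to 0.53 for rRNA (positive without Lmx1a-/- embryo 1) and from -0.072 to 0.0067 for mRNA (positive without wild-type embryo 1 or 2). The log2 difference of mt-Rnr1 over mt-Rnr2 ranged from -0.10 to 0.030 (positive without Lmx1a-/- embryo 4) and that of mt-Co3 over mt-Cytb from -0.24 to 0.32. Without Lmx1a-/- embryos 4 and 5 it was 0.10 for mt-Rnr1 over mt-Rnr2 and 0.0038 for mt-Nd6 over mt-Nd5. Signs of uncalled members turned as follows. Without Lmx1a-/- embryos 4 and 5, the fold changes were -0.039 for mt-Nd1, -0.16 for mt-Nd2, -0.090 for mt-Nd4, -0.085 for mt-Nd5 and -0.069 for mt-Cytb. With the Xist covariate they were -0.080 for mt-Nd2, -0.15 for mt-Tn, -0.12 for mt-Nd4 and -0.0077 for mt-Cytb, and with the choroid plexus covariate -0.097 for mt-Tn, -0.099 for mt-Tc and -0.043 for mt-Co3. With single libraries left out the range was -0.084 to 0.080 for mt-Rnr2, -0.054 to 0.10 for mt-Nd2, -0.17 to 0.24 for mt-Tn, -0.00099 to 0.19 for mt-Tc, -0.012 to 0.35 for mt-Co3, -0.033 to 0.10 for mt-Nd4 and -0.0020 to 0.13 for mt-Nd5. Among nuclear subunits of complexes I to V, 0 were lower with library totals alone, with the replicate block, with either covariate and without embryos 4 and 5, 5 with the filter of 50 counts in 5 libraries and 6 with DESeq2 (0 to 5 with single libraries left out). Over all nuclear lists the lower calls were 1 with library totals alone, 1 with the replicate block, 0 with either covariate or without embryos 4 and 5, 6 with the stricter filter and 9 with DESeq2 (0 to 6 with single libraries left out). Higher calls were 1 with the stricter filter, 1 without embryos 4 and 5 and 5 with DESeq2 (0 to 2 with single libraries left out). The cause of these shifts was not tested. Calls over all genes, 497 lower and 373 higher, fell to 12 and 12 with the choroid plexus covariate, 27 and 4 with the Xist covariate, 185 and 124 without embryos 4 and 5, and with 1 library left out at the least to 261 and 190 (lower calls moved by over 1.5 times without wild-type embryo 1 or 2 or Lmx1a-/- embryo 2, 4 or 5), and rose to 976 and 790 with DESeq2. Equal embryo numbers did not mark paired samples (correlations of -0.099 to 0.013), and with the replicate block mt-Tl1 had an FDR of 0.145 and all genes gave 353 lower and 248 higher calls. Members with under about 10 counts per library are limited by depth.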

Other observations

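The following values were chosen after they were seen and have no test. Mir6236, annotated as a microRNA gene, had 23385 to 342321 counts per library and moved beside Lars2. Which RNA the reads counted at Mir6236 and Lars2 came from was not tested. In CPM scaled by library totals, Mir6236 was at 9711, 11640, 10333, 10028 and 6285 in wild-type and 5619, 3639, 7089, 1388 and 781 in Lmx1a-/- embryos 1 to 5, and its lowest values were in the same 2 embryos, 4 and 5, as those of Lars2 and mt-Co1. Its log2 fold change was -1.41 (edgeR, SE 0.44, FDR 0.126). The complex IV subunit Cox7b varied between embryos of a genotype more than Cox5b and Cox8a did, with 51.9, 75.8, 119, 126 and 67.7 normalized CPM in wild-type and 46.6, 43.5, 43.1, 123 and 140 in Lmx1a-/- libraries (log2 fold change -0.15, SE 0.36, FDR 0.882).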
